A study of Mus musculus with 9 samples.

Results

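Expression of the respiratory chain genes that lie outside the duplicated region was compared in mouse embryonic fibroblasts (MEFs) of 2 genotypes, Dp1Tyb and wild-type (WT). The genes were taken by symbol from the deposited count table: protein-coding genes of the GENCODE M21 annotation that start with *Nduf*, *Uqcr*, *Cox4* to *Cox8*, *Atp5*, *Sdha* to *Sdhd* or *mt-*, without those in the duplicated region of Mmu16 (chr16:75540514-97962622, GRCm38). This gave 108 of the 43629 genes in the table. Of these, 95 are encoded in the nucleus and 13 in the mitochondrial genome, and both sets were kept apart throughout. Grouped by symbol, the nuclear set holds 38 genes for subunits of complex I, 4 for complex II, 8 for complex III, 18 for complex IV, 15 for complex V and 12 for assembly factors of complexes I and II. A further 2 genes with such symbols, *Atp5j* and *Atp5o*, lie inside the duplicated region and served as a reference.

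The respiratory chain sits in the inner mitochondrial membrane. Complexes I and II pass electrons from NADH and succinate to ubiquinone, complex III passes them on to cytochrome c and complex IV to oxygen, and complex V uses the proton gradient built up by complexes I, III and IV to make ATP. The mitochondrial genome encodes only a few of the subunits, at the core of complexes I, III, IV and V, and all the others are made from nuclear genes and imported, so that each complex except II is assembled from products of both genomes. Several nuclear subunits have isoforms used in particular tissues, such as heart and skeletal muscle, or under low oxygen.

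MEFs are primary fibroblasts, grown here from embryos that were dissociated with trypsin after removal of the head and inner organs. They came from E14.5 littermate embryos of strain C57BL/6J.129P2, a culture for each embryo, after 2 passages. The 4 WT cultures were labelled Wild-type and the 5 Dp1Tyb cultures Dp(16Lipi-Zbtb21)1TybEmcf, a duplication of the Mmu16 region from *Lipi* to *Zbtb21*. The labels give no treatment. Total counts per culture were between 24804539 and 30009361. The sample labels number the cultures in sets, with WT 1 and Dp1Tyb 1 in set 1 and the remaining 7 in set 2, and do not say what a set is.

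All 10 fibroblast markers examined were expressed, together at 41200 to 68300 normalised CPM (counts scaled to library size with the TMM method), so the cultures carried the profile of their label. Markers of other cell types were detected at different levels. The summed level of 10 macrophage markers was between 16.9 normalised CPM in Dp1Tyb 2 and 395 in Dp1Tyb 3. That of 12 skeletal muscle markers was 13.6 to 73.7 in WT and 24.9 to 253 in Dp1Tyb. EdgeR tested 5 of the 12 and called 0, and 3 had an unadjusted *p* below 0.05, beside 3.13% of all genes tested. All 5 were higher in Dp1Tyb, with a median log2 fold change of 1.11. The highest sum was in Dp1Tyb 2, with 223 from *Acta1*, skeletal muscle actin, while *Myod1*, *Myog*, *Myf5* and *Ckm*, which define muscle cells, were at or under 3 counts in every culture. Of 8 neural and glial markers, edgeR tested 6 and called 0, and 2 had an unadjusted *p* below 0.05. Of these 6, 3 were higher and 3 lower in Dp1Tyb, with log2 fold changes between -1.71 and 0.60 and a median of -0.19. The lowest *p* was that of *Sox10* (edgeR unadjusted *p* = 0.00138, adjusted *p* = 0.403). In these bulk samples, fewer cells of a type and less RNA per cell cannot be told apart.

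The duplicated genes were higher in every Dp1Tyb culture than in any WT culture. *Atp5j*, which encodes a subunit of complex V (coupling factor 6), had 79.5, 87.7, 87.8 and 83.5 normalised CPM in WT 1 to 4 and 114, 147, 122, 117 and 125 in Dp1Tyb 1 to 5. Its log2 fold change in Dp1Tyb vs WT was 0.56 ± 0.08 (SE; 4 WT and 5 Dp1Tyb cultures; edgeR quasi-likelihood test, adjusted *p* = 0.0417). *Atp5o*, the subunit of complex V that confers sensitivity to oligomycin, had 109, 139, 125 and 131 normalised CPM in WT and 169, 214, 197, 175 and 196 in Dp1Tyb cultures, a log2 fold change of 0.59 ± 0.10 (SE), with no overlap between the genotypes. By the same edgeR test its adjusted *p* was 0.0717, above the threshold of 0.05. The call of *Atp5o* depended on the fit: edgeR called it with the culture set as a covariate (adjusted *p* = 0.0253), and DESeq2 with its beta prior called both *Atp5o* (adjusted *p* = 5.4e-05) and *Atp5j* (adjusted *p* = 5.1e-06). By edgeR, *Atp5j* kept its call with the set as a covariate (adjusted *p* = 0.0412) and without Dp1Tyb 2 (adjusted *p* = 0.0194), but lost it without any other single culture (adjusted *p* from 0.0797 to 0.207) and within set 2 alone (adjusted *p* = 0.194). Its log2 fold changes were between 0.50 and 0.60 in all these fits. The exons of *Atp5j* share 397 bases with *Gabpa* on the opposite strand. Those of *Atp5o* share 356 bases with *Gm15976* and 346 with *D430001F17Rik* on the opposite strand. They also share 243 with a second annotated *Atp5o* entry on the same strand. The strand setting of the counting is not given in the sources used here.

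Outside the duplicated region, no respiratory chain gene was called differentially expressed. Of the 95 nuclear genes, 92 had enough counts to be tested, and of the 13 mitochondrial genes, 12. None of either set had an adjusted *p* below 0.05 by edgeR, beside 24 of 14567 genes tested in all, which is 0.165%. Nor did any of either set have an unadjusted *p* below 0.05, beside 3.13% of all genes tested, and DESeq2 also called 0 nuclear and 0 mitochondrial genes. The median log2 fold change of the nuclear genes was -0.008, with 40 of 92 above 0, and that of all genes tested was 0.003. The quartiles of the nuclear genes were -0.05 and 0.03 on the log2 scale, and those of all genes tested -0.10 and 0.09.

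**Figure D1:**
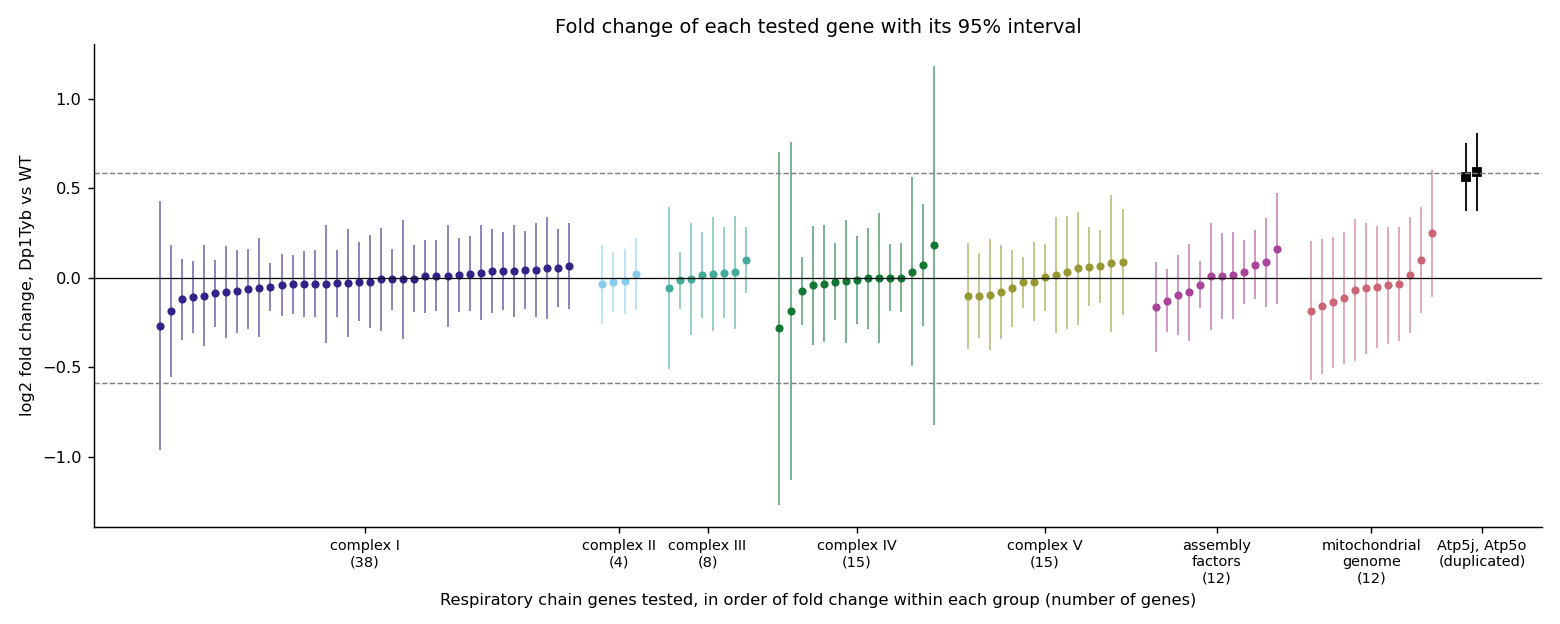
Log2 fold change in Dp1Tyb vs WT MEFs of the 92 nuclear and 12 mitochondrial respiratory chain genes tested, by complex, with the 95% confidence interval of each (vertical lines), and of the duplicated genes *Atp5j* and *Atp5o* (squares). Dashed lines mark a change of 1.5-fold. All intervals of the genes outside the duplicated region include 0, and those of 88 nuclear and 11 mitochondrial genes stay within the dashed lines, while the squares lie at 0.56 and 0.59.

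The 95% confidence interval of the log2 fold change had a median half-width of 0.24 for the nuclear genes and 0.32 for all genes tested. For 88 of the 92 nuclear genes tested, the whole interval lay within a change of 1.5-fold in either direction, beside 63.5% of all genes tested. The 4 nuclear genes with wider intervals were *Ndufa4l2*, *Cox4i2*, *Cox6a2* and *Cox7a1*, all isoforms at low levels in these cells. A 1.5-fold change is therefore outside the interval of each of the other 88 genes, whereas a change within the intervals was not detectable with these cultures.

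Complex I, the NADH dehydrogenase, is the largest complex and gave the largest set. All 38 nuclear genes with its symbols were tested, and their log2 fold changes were between -0.27 and 0.06 with a median of -0.02, 14 of them above 0. The lower end was *Ndufa4l2*, an isoform at 3.76 RPKM (reads scaled by library size and exon length), and the next lowest was *Ndufb2* at -0.18. *Ndufs1*, which carries iron-sulfur clusters of the electron path, had 84.3, 97.0, 84.2 and 93.2 normalised CPM in WT and 85.5, 104, 86.0, 84.4 and 86.8 in Dp1Tyb cultures. Its log2 fold change was -0.005 ± 0.083 (SE), and the cultures of both genotypes overlapped. *Ndufv1*, which binds the NADH, stood at 68.6 ± 4.67 normalised CPM in WT and 66.8 ± 4.44 in Dp1Tyb (SD, n = 4 and 5). *Ndufa5*, an accessory subunit with the lowest unadjusted *p* of the complex, had a log2 fold change of -0.12 ± 0.10 (SE; edgeR unadjusted *p* = 0.265, adjusted *p* = 1.00).

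Complexes II and III gave small sets of well expressed genes. The 4 subunits of complex II, succinate dehydrogenase, which also works in the tricarboxylic acid cycle, had log2 fold changes between -0.04 and 0.02, and the median half-width of their intervals was 0.19, the narrowest of the 5 complexes. *Sdha*, the subunit that binds succinate, had 193, 210, 187 and 193 normalised CPM in WT and 192, 218, 185, 183 and 187 in Dp1Tyb cultures, a log2 fold change of -0.02 ± 0.07 (SE). *Sdhb*, its iron-sulfur partner, stood at 75.6 ± 8.35 normalised CPM in WT and 76.8 ± 5.93 in Dp1Tyb (SD, n = 4 and 5). The 8 nuclear genes of complex III had log2 fold changes between -0.06 and 0.10. Among these were *Uqcrfs1*, the Rieske iron-sulfur protein, at 0.03 ± 0.14 (SE), and *Uqcrc2*, a core protein, at 0.10 ± 0.08 (SE; edgeR unadjusted *p* = 0.248), the lowest *p* of complex III.

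Complex IV, cytochrome c oxidase, had 18 nuclear genes, of which 15 were tested. Their log2 fold changes were between -0.28 and 0.18, with both ends of this range taken by isoforms below 2 RPKM (reads scaled by library size and exon length). *Cox4i1*, the widely expressed form of subunit 4, had 191, 284, 268 and 240 normalised CPM in WT and 217, 286, 244, 235 and 245 in Dp1Tyb cultures, and a log2 fold change of -0.003 ± 0.125 (SE). *Cox5a* stood at 74.3 ± 14.1 normalised CPM in WT and 78.0 ± 12.9 in Dp1Tyb (SD, n = 4 and 5). In complex V, the ATP synthase, the 15 nuclear genes had log2 fold changes between -0.10 and 0.09 with 8 above 0. *Atp5a1*, the alpha subunit of its catalytic head, had a log2 fold change of 0.003 ± 0.084 (SE) and an interval of -0.19 to 0.19. *Atp5b*, the beta subunit, which holds the catalytic sites, had 620, 950, 809 and 800 normalised CPM in WT and 781, 1167, 722, 767 and 767 in Dp1Tyb cultures. The highest value was in Dp1Tyb 2 and the lowest in WT 1, and its log2 fold change was 0.08 ± 0.17 (SE).

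The assembly factors, proteins that help to build a complex but are not part of it, included the 2 nuclear genes whose cultures did not overlap between the genotypes. This compares with 1.36% of all genes tested. *Ndufaf1*, needed to assemble the membrane arm of complex I (chr2:119655446-119662827), had 12.5, 13.9, 12.6 and 12.1 normalised CPM in WT and 11.6, 11.9, 11.1, 11.8 and 12.1 in Dp1Tyb cultures. All Dp1Tyb values were below all WT values, though WT 4, at 12.13, and Dp1Tyb 5, at 12.09, differed by little. Its log2 fold change was -0.13 ± 0.08 (SE; edgeR unadjusted *p* = 0.136, adjusted *p* = 1.00), the lowest unadjusted *p* of all nuclear genes. *Ndufaf7*, a methyltransferase that acts on a core subunit of complex I (chr17:78937136-78948052), singled out here after its values were seen, had 20.2 to 20.5 normalised CPM in WT and 19.4 to 20.2 in Dp1Tyb cultures. This corresponds to a log2 fold change of -0.04 ± 0.06 (SE) and varied less between cultures than any other nuclear gene tested of the set, with a within-genotype SD of 0.02 on the log2 scale. *Ndufaf8* had a log2 fold change of -0.16 ± 0.11 (SE) and *Sdhaf3*, for complex II, of 0.16 ± 0.14 (SE), and the genotypes overlapped for both.

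The levels of the subunits differed far more between genes than between genotypes. RPKM divides by the summed length of all annotated exons and was used wherever genes were compared with each other. Median RPKM over the 9 cultures was 26.9 for nuclear complex I genes, 40.6 for complex II, 53.3 for complex III, 41.2 for complex IV and 35.8 for complex V. The most highly expressed gene was *Ndufa2* in complex I at 90.1 RPKM, *Sdhd* in complex II at 67.7, *Uqcrh* in complex III at 92.9, *Cox8a* in complex IV at 209 and *Atp5b* in complex V at 194. The assembly factors were lower, with a median of 4.74 RPKM and a range from 1.116 for *Sdhaf3* to 13.2 for *Sdhaf4*. The lowest complex I gene was *Ndufb2* at 0.726 RPKM, whose annotated exons add up to 5628 bases and overlap those of 3 other genes.

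**Figure D2:**
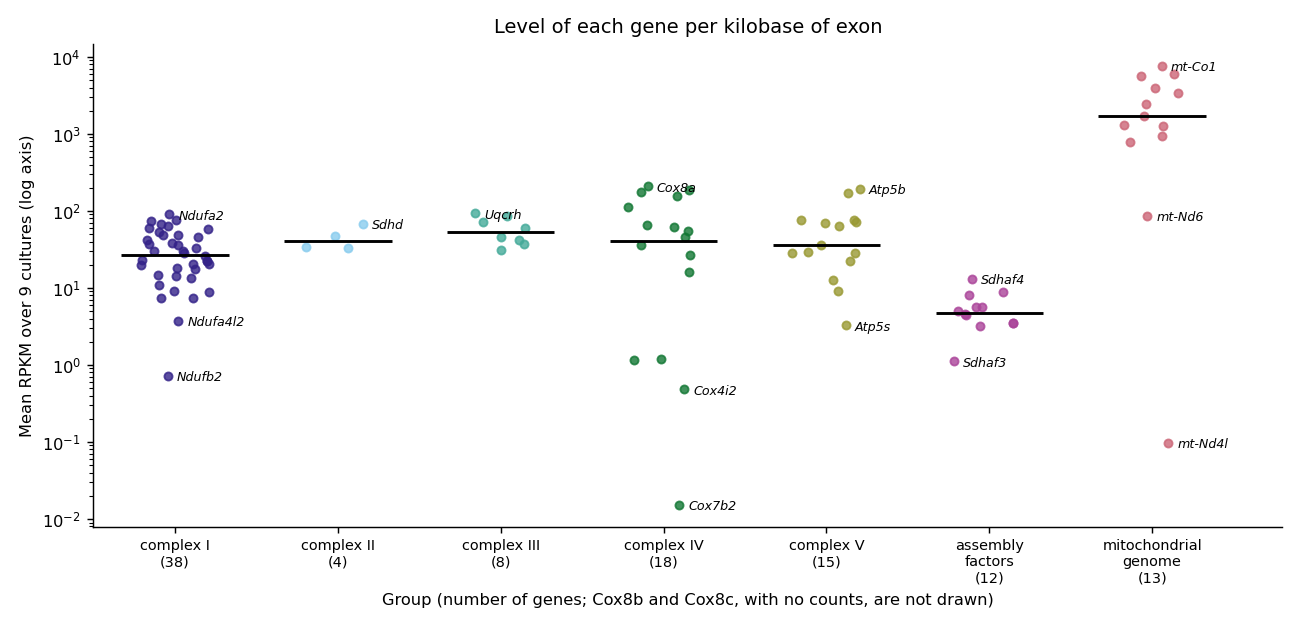
Mean level of each respiratory chain gene over the 9 MEF cultures in RPKM on a log axis, by complex, for nuclear genes, assembly factors and mitochondrial genes, with the median of each group as a bar. The mitochondrial genes lie at 794 RPKM or above, apart from *mt-Nd6* at 85.7 and *mt-Nd4l* at 0.0977, while nuclear subunits reach at most 209. *Cox8b* and *Cox8c*, with no counts, are not drawn.

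Isoforms of the same subunit were expressed very unequally, and the share of each in its set differed between genotypes by less than the SD between cultures. *Cox4i1* made up 99.7% ± 0.178 of the RPKM of subunit 4 in WT and 99.7% ± 0.0858 in Dp1Tyb cultures (SD, n = 4 and 5), the remainder being *Cox4i2*, the form induced by low oxygen. *Cox6a1* took 99.3% ± 0.417 in WT and 99.3% ± 0.384 in Dp1Tyb, beside the heart and muscle form *Cox6a2*. For subunit 7a, *Cox7a2l*, a supercomplex assembly factor related to it, held 62.8% ± 4.25 in WT and 63.0% ± 4.03 in Dp1Tyb, and *Cox7a2* held 36.5% ± 4.16 and 36.3% ± 4.05. *Cox7a1*, the heart and muscle form, contributed less than 1% in both. *Cox6b2*, known as a testis form, was an exception among these restricted isoforms, with 15.9 RPKM, or 7.87% ± 1.80 of subunit 6b in WT and 8.35% ± 2.88 in Dp1Tyb.

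**Figure D3:**
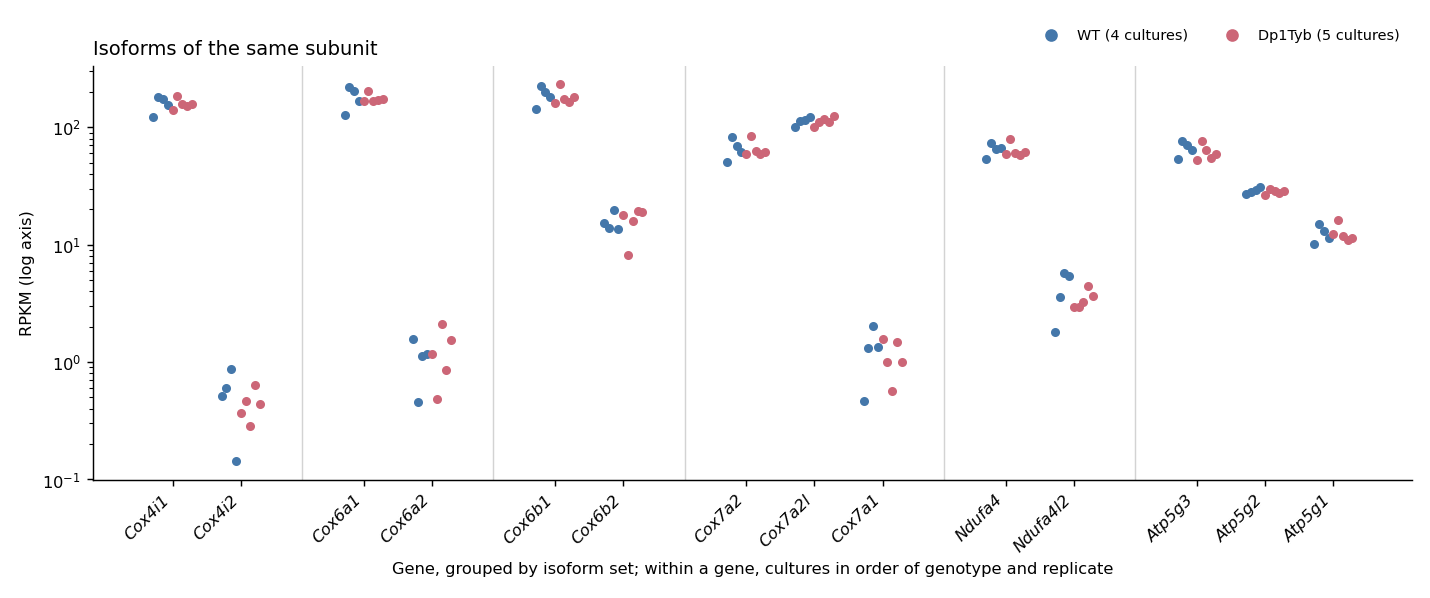
RPKM of the isoforms of 6 subunits in each of the 9 MEF cultures on a log axis (blue, WT; red, Dp1Tyb). For each isoform the points of both genotypes overlap, and *Cox4i2*, *Cox6a2* and *Cox7a1*, with means of 0.482, 1.17 and 1.196 RPKM, lie far below *Cox4i1*, *Cox6a1* and *Cox7a2l*, with 158, 178 and 113.

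The other isoform sets showed the same picture. *Ndufa4*, now counted as a subunit of complex IV, took 94.1% ± 2.33 in WT and 94.8% ± 1.30 in Dp1Tyb, with *Ndufa4l2*, another gene induced by low oxygen, as the rest. *Ndufa4l2* had the lowest fitted value among complex I symbols, a log2 fold change of -0.27 ± 0.31 (SE), and ranged from 1.98 normalised CPM in WT 1 to 6.32 in WT 3, which enclosed all Dp1Tyb cultures. The 3 genes for subunit c of the ATP synthase encode the same mature protein. *Atp5g3* held 61.4% ± 2.26 of their RPKM in WT and 60.0% ± 1.88 in Dp1Tyb, *Atp5g2* 27.0% ± 3.03 and 27.8% ± 2.01, and *Atp5g1* 11.6% ± 0.872 and 12.3% ± 0.997. Before division by exon length, *Atp5g1* was above *Atp5g2*, with 61.1 and 48.1 normalised CPM in WT. Their annotated exons add up to 4912 and 1675 bases, so the order of *Atp5g1* and *Atp5g2* depends on this length. *Cox8b* and *Cox8c* had no counts in any culture, which allows at most 0.121 CPM (3 counts in the smallest library, counting error only), and *Cox7b2* had 1 count in each of WT 3 and Dp1Tyb 1.

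The mitochondrial genes were the most abundant. Together the 13 genes made up 3.13%, 3.29%, 4.87% and 3.54% of all counts in WT 1 to 4 and 3.12%, 3.39%, 3.64%, 3.44% and 3.69% in Dp1Tyb 1 to 5. The mean was 3.71% ± 0.792 in WT and 3.46% ± 0.228 in Dp1Tyb (SD, n = 4 and 5), a difference of -0.25 percentage points that is smaller than the SD between WT cultures. WT 3 stood above the 8 other cultures, and without it the WT mean was 3.32% ± 0.206, below that of Dp1Tyb. The 95 nuclear genes made up 0.5996%, 0.744%, 0.705% and 0.677% in WT and 0.632%, 0.762%, 0.652%, 0.610% and 0.660% in Dp1Tyb cultures, with means of 0.681% ± 0.0609 and 0.663% ± 0.0585. Counts of the mitochondrial genes exceeded those of the nuclear genes by a factor of 5.44 ± 1.05 in WT and 5.24 ± 0.531 in Dp1Tyb.

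**Figure D4:**
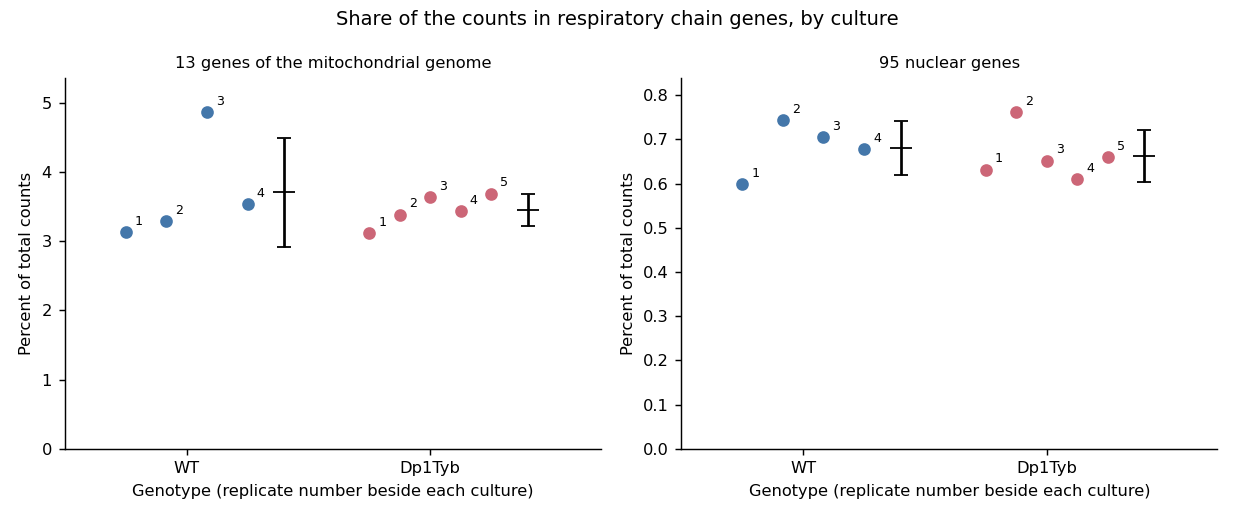
Percent of all counts that fell on the 13 mitochondrial (left) and the 95 nuclear (right) respiratory chain genes in each culture, with the mean and SD of each genotype beside the points (WT, n = 4; Dp1Tyb, n = 5). On the left WT 3 stands alone at 4.87%; on the right WT 1 is lowest at 0.5996% and Dp1Tyb 2 highest at 0.762%.

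Log2 fold changes of the 12 mitochondrial genes tested were between -0.18 and 0.25 with a median of -0.06, and 3 of them were above 0. *mt-Co1*, which encodes the catalytic subunit of complex IV, was the highest of all at 7627 RPKM, followed by *mt-Co2* at 5963, *mt-Co3* at 5641, *mt-Atp6* at 3946 and *mt-Cytb*, the only mitochondrial gene of complex III, at 3383. *mt-Co1* had 9959, 10420, 15580 and 12260 normalised CPM in WT and 9904, 10960, 12200, 12020 and 12760 in Dp1Tyb cultures. WT 3 was the highest and the remaining 8 cultures overlapped, with a log2 fold change of -0.06 ± 0.16 (SE). For *mt-Co2*, *mt-Co3* and *mt-Cytb* the values were -0.11, -0.14 and -0.03, and for *mt-Atp6*, the proton channel of complex V, -0.05.

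The complex I subunits of the mitochondrial genome were at lower levels. *mt-Nd1* stood at 2444 RPKM, *mt-Nd4* at 1696, *mt-Nd2* at 1308, *mt-Nd5* at 1264 and *mt-Nd3* at 939, with log2 fold changes of -0.07, -0.04, 0.01, 0.10 and -0.18 in this order. *mt-Nd6*, the only one of the 13 on the other strand, where its last bases face those of *mt-Nd5*, stood at 85.7 RPKM. The libraries were made from poly(A) RNA, and how this acted on the level of *mt-Nd6* was not tested. Its values were 48.9, 57.7, 51.5 and 30.9 normalised CPM in WT and 48.6, 38.7, 35.4, 43.7 and 45.03 in Dp1Tyb cultures, a log2 fold change of -0.16 ± 0.17 (SE), and here WT 2 was the highest and WT 4 the lowest. The mitochondrial ribosomal RNAs, in libraries made from poly(A) RNA, were at 161 RPKM for *mt-Rnr1* and 220 for *mt-Rnr2*, with log2 fold changes of -0.27 ± 0.20 and -0.42 ± 0.20 (SE; edgeR adjusted *p* = 1.00 for both).

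*mt-Atp8*, a small subunit of complex V, had the largest positive value of the mitochondrial genes. It had 136, 101, 171 and 178 normalised CPM in WT and 150, 171, 170, 185 and 194 in Dp1Tyb cultures. WT 2 was the lowest, and WT 3 and WT 4 lay among the Dp1Tyb cultures. The log2 fold change was 0.25 ± 0.16 (SE; edgeR unadjusted *p* = 0.150, adjusted *p* = 1.00), and its interval of -0.11 to 0.60 is the only one among the mitochondrial genes that reaches beyond 1.5-fold. The gene is read from the same RNA as *mt-Atp6*, and the last 43 bases of *mt-Atp8* are also the first of *mt-Atp6*, so reads there lie in both genes. The reference sequence (chrM:7766-7969, GRCm38, plus strand) is shown with the shared bases in capitals.
mt-Atp8: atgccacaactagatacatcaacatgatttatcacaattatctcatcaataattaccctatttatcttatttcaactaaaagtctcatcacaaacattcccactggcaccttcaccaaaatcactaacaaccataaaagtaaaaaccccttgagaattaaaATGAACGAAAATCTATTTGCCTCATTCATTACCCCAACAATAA

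*mt-Nd4l*, a complex I subunit, could not be tested, as it had no more than 2 counts in any culture. It lies directly before *mt-Nd4*, which had 51254 to 82126 counts, and both overlap by 7 bases. The sequence is shown because it has a copy in the nuclear genome (chrM:9877-10173, GRCm38, plus strand, with the bases shared with *mt-Nd4* in capitals).
mt-Nd4l: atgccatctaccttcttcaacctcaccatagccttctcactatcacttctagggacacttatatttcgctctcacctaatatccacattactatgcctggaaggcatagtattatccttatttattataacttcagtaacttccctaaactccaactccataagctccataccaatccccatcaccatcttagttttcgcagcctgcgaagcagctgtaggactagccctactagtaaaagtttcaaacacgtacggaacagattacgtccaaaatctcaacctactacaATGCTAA

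A stretch of Mmu1 holds copies of 7 of the mitochondrial genes in the annotation, from *mt-Co1* to *mt-Nd4*. The copy of *mt-Nd4l*, *Gm10222* (chr1:24612407-24612700), matched it at 294 of 294 aligned bases, and 98.5% of the 100-base windows of *mt-Nd4l* occur in transcripts of other genes. The same share was 99.9% for *mt-Co3*, 99.5% for *mt-Co2* and *mt-Atp6*, 97.6% for *mt-Nd3*, 60.8% for *mt-Nd4* and 30.8% for *mt-Co1*. Nevertheless *mt-Co3* had 98356 to 161817 counts and *mt-Co2* 92962 to 148764, and the copies themselves held between 0 and 139 counts each. The authors discarded reads aligned to several places, and how this acted on these genes was not tested. Levels of the 7 genes with an annotated copy are therefore uncertain. Only annotated transcripts were searched, so *mt-Atp8*, which starts between *mt-Co2* and *mt-Atp6*, was not compared with the bases between their copies. Among the nuclear genes the level of *Atp5l* is uncertain as well, with 69.0% of its windows found in 3 processed pseudogenes. *Ndufb4*, with 33.4%, and *Atp5h*, with 29.5%, had smaller shares in a processed pseudogene. The shared windows of *Sdhaf1*, 68.3% of its own, lie instead in *E130208F15Rik*, which overlaps it on the opposite strand of the same locus, and without the strand setting the reads of both genes cannot be told apart. Comparisons between cultures share the same counting.

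Whereas genotype made no detectable difference, cultures differed from each other, and nuclear genes moved together. WT 1 had the lowest value of all 9 cultures for 62 of the 92 nuclear genes tested, and Dp1Tyb 1, of the same set of cultures, for 17. Dp1Tyb 2 had the highest for 47 and WT 2 for 21. Relative to the mean of the WT cultures, the median nuclear gene stood at -0.22, 0.13, 0.06 and 0.01 in WT 1 to 4 and at -0.12, 0.19, -0.01, -0.09 and 0.01 in Dp1Tyb 1 to 5 on the log2 scale. These medians ran through both genotypes, and taken by complex, WT 1 was lowest in each of complexes I to V and Dp1Tyb 2 highest in each except complex IV, where WT 2 was. The assembly factors spanned less, from -0.10 to 0.14.

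**Figure D5:**
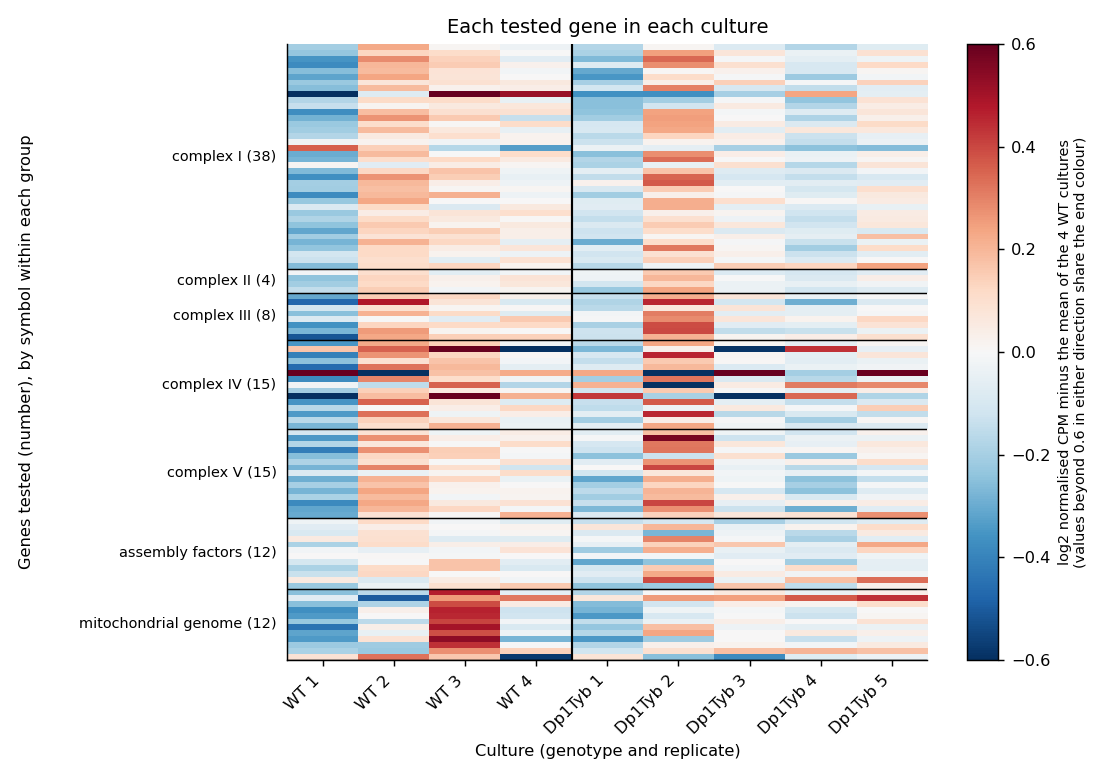
Level of each tested respiratory chain gene (rows, by complex) in each culture (columns), as log2 normalised CPM minus the mean of the 4 WT cultures. The nuclear genes are mostly low (blue) in WT 1 and Dp1Tyb 1 and high (red) in WT 2 and Dp1Tyb 2, the mitochondrial genes are high in WT 3, and the columns do not fall into genotypes.

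The direction of the nuclear median rested on these cultures. Without WT 1 it was -0.08, with 10 of 92 genes above 0, without Dp1Tyb 2 it was -0.07, with 13 above 0, and without WT 2 it was 0.04, with 64 above 0. Within the second set of cultures alone (3 WT and 4 Dp1Tyb) it was -0.04, with 18 of 92 above 0, and the first set holds a single culture of each genotype. No nuclear gene was called in any of these fits. Dp1Tyb 2, in which most nuclear genes were highest, also had the most muscle marker RNA (253 normalised CPM), mostly from *Acta1*. It had the least of the macrophage markers (16.9) and of the fibroblast markers (41200), and WT 2 was second for muscle markers (73.7). WT 1, in which most nuclear genes were lowest, had the least of the muscle markers (13.6). The macrophage markers were next lowest in Dp1Tyb 1 (23.8), where the median nuclear gene was low, at -0.12. The part of these markers in the order of the cultures was not tested. The muscle isoforms had few counts in Dp1Tyb 2, with 8 for *Cox6a2* (0.328 normalised CPM) and 13 for *Cox7a1* (0.532), and *Cox8b* had none in any culture. Whether counts this low bear on the muscle markers of this culture was not tested.

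The mitochondrial genes followed another order. WT 3 was the highest culture for 10 of the 12 genes tested, with a median of 0.42 on the log2 scale above the WT mean, while the other cultures lay between -0.25 in WT 1 and 0.04 in Dp1Tyb 5. Without WT 3 the median log2 fold change was 0.12, with 11 of 12 above 0, instead of -0.06 with 3 above 0. No mitochondrial gene was called with or without this culture. The ratio of mitochondrial to nuclear counts was therefore highest in WT 3, at 6.91, and lowest in WT 2, at 4.43, with all Dp1Tyb cultures between 4.44 and 5.64. In WT 3 the macrophage and muscle markers, at 136 and 25.8 normalised CPM, lay within the range of the other cultures.

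Other genes of mitochondrial function were examined from lists. Of 43 further subunits and assembly factors whose symbols the rule does not take, such as those for cytochrome c and for the assembly of complex IV, 42 were tested, 0 were called by edgeR, 0 had an unadjusted *p* below 0.05, and the median log2 fold change was 0.000. The lowest *p* was that of *Uqcc3*, an assembly factor of complex III, at -0.19 ± 0.09 (SE; edgeR unadjusted *p* = 0.0688). Its Dp1Tyb cultures, at 9.09 to 11.4 normalised CPM, lay below the WT cultures, at 11.5 to 12.9. Of 31 genes for mitochondrial DNA and RNA handling, 30 matched the table by symbol and were tested with 0 called and a median of 0.02, and the lowest *p* was that of *Rrm2b*, a ribonucleotide reductase subunit that supplies nucleotides for mitochondrial DNA, at 0.19 ± 0.11 (SE). All 18 tricarboxylic acid cycle genes were tested with 0 called and a median of 0.05, 14 of them above 0, and the lowest *p* was that of *Dlat*, of the pyruvate dehydrogenase complex, at 0.14 ± 0.10 (SE; edgeR unadjusted *p* = 0.190).

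The regulators of these genes included the only called members of any list. Of 15 regulators, 14 were tested and 2 were called, both in the duplicated region, beside 24 of all 14567 genes tested (0.165%). *Gabpa*, the DNA-binding subunit of the factor GABP (also called nuclear respiratory factor 2), had 73.8, 65.1, 66.7 and 78.2 normalised CPM in WT and 113, 112, 113, 111 and 106 in Dp1Tyb cultures. The genotypes did not overlap, and its log2 fold change was 0.64 ± 0.07 (SE; edgeR adjusted *p* = 0.0102). *Nrip1*, which encodes the corepressor RIP140, known to restrain oxidative metabolism, had 24.2 to 28.1 normalised CPM in WT and 37.4 to 44.7 in Dp1Tyb cultures, a log2 fold change of 0.60 ± 0.08 (SE; edgeR adjusted *p* = 0.0183). Leaving out a culture ended the call of *Gabpa* for WT 2, WT 3 and Dp1Tyb 5 (edgeR adjusted *p* from 0.0503 to 0.0678) and that of *Nrip1* for each WT culture, Dp1Tyb 4 and Dp1Tyb 5 (from 0.0548 to 0.0977), while the fold changes stayed at 0.60 or above for *Gabpa* and 0.56 or above for *Nrip1*. Within set 2 alone neither was called (edgeR adjusted *p* = 0.101 and 0.140), at 0.65 and 0.63, and DESeq2 called both. Of the 12 tested regulators outside the duplicated region 0 were called, with a median of -0.08, and the one with the lowest *p* was *Esrrg*, an estrogen-related receptor, at -1.05 ± 0.47 (SE; edgeR unadjusted *p* = 0.0512) and 0.193 RPKM.

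The promoters of the nuclear genes were searched for the motifs of such regulators. RefSeq promoters (GRCm38.p6, 250 bases before to 50 after the start) were matched by symbol for 76 of the 95 nuclear genes, and motifs were counted on both strands. Some genes have more than 1 promoter, and a gene was counted when any of its promoters held the motif. CCGGAAG, the core bound by GABP and other factors of the ETS family, was found in 20 of the 76 genes, or 26.3%. This compares with 9.93% of the 27025 genes with a promoter in the whole set. The palindrome bound by NRF1 was found in 7, or 9.21%, beside 1.07%, and AAGATGGC, bound by YY1, in 9, or 11.8%, beside 3.19%. TCAAGGTCA, bound by the estrogen-related receptors, was found in 2, or 2.63%, beside 0.466%. GGGCGG, bound by Sp1, was found in 47.4% beside 38.2%, and CCAAT in 44.7% beside 41.1%. None of these motifs contains another, and a match is not in itself a binding site.

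The fold changes of genes with CCGGAAG lay around 0, as did those of genes without it. The median log2 fold change of the 20 tested genes with CCGGAAG was -0.03 and that of the 54 tested genes without it was -0.01. Whether the level of *Gabpa* bears on these genes was not tested. For the 7 genes with the NRF1 motif it was -0.01 and for the 67 without -0.02, and *Nrf1* itself was at -0.10 ± 0.07 (SE). Only *Atp5k* and *Cox6a1* held both motifs, and their promoters, both read on the minus strand, are shown with the motifs in capitals (chr5:108434350-108434649 and chr5:115348909-115349208). *Atp5k*, chosen here for its promoter, encodes the small e subunit of the ATP synthase dimer and had a log2 fold change of -0.02 ± 0.10 (SE), and *Cox6a1* had -0.03 ± 0.15 (SE).
Atp5k: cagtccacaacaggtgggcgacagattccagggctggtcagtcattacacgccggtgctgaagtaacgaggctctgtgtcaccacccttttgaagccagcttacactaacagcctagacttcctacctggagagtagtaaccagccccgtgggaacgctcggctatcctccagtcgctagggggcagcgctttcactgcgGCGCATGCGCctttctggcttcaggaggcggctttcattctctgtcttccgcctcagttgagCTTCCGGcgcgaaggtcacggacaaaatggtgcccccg
Cox6a1: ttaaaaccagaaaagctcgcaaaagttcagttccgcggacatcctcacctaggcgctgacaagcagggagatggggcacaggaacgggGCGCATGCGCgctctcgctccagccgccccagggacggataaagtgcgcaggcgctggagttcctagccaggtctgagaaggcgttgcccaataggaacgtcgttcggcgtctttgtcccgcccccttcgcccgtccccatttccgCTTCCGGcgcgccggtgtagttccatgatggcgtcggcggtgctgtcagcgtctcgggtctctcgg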

How the data were processed

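RNA from 9 MEF cultures was analysed, grouped by the genotype in the labels. Per the labels and the methods of the study, poly(A) RNA libraries (TruSeq Stranded mRNA, paired-end) were trimmed with Trim Galore and mapped to GRCm38 with TopHat2 2.0.12. The authors discarded multi-aligning reads and deposited raw counts per gene from htseq-count, whose strand option and annotation release are not given in the sources used here. Normalised values and results tables of the authors' own DESeq2 1.6.3 comparison were not used.

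Counts were tested with edgeR 4.0.16 in R 4.3.3 (TMM normalisation, filterByExpr by genotype, glmQLFit and glmQLFTest, two-sided, no covariate) over 14567 genes, with Benjamini-Hochberg adjustment over all of them and a threshold of 0.05. The test was checked on simulated counts. Cultures come from different embryos. DESeq2 1.42.0, other normalisations, filters and covariates, and leaving out each culture were alternatives. RPKM used the TMM-scaled library and the union of GENCODE M21 exons. Adjusted *p* printed as 1.00 was 0.9997. Sequences came from GENCODE M21 transcripts and RefSeq promoters. Nearly identical copies were counted as exact matches of 100-base windows in transcripts of other genes. Depth was 24804539 to 30009361 counts per culture, and the interval of each fold change gives the precision.

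The genes named are all mitochondrial members, any called, the 5 nuclear members with the lowest *p*, the most highly expressed of each group, isoform sets, reference genes, and in each list those called or with the lowest *p*. A few others were added for their role. The members and lists were chosen with earlier results of these data known.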

Additional observations from a re-analysis of the deposited data

Results flagged for a closer look

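Within a genotype, 14 values of named genes stood apart from the other cultures by Dixon's test at 95%, of 96 groups tested, where chance flags about 1 in 20. In 13 of the 14 the culture was Dp1Tyb 2. It was the highest Dp1Tyb culture for *Atp5b* (1167 normalised CPM, others 722 to 781), *Atp5g1* (79.8, others 53.8 to 60.5), *Cox5a* (100.4, others 68.5 to 77.0), *Cox6a1* (142, others 117 to 122), *Cox6b1* (164, others 114 to 128), *Cox7a2* (79.4, others 55.7 to 58.9), *Cox7b* (100.3, others 65.2 to 70.3), *Cox8a* (152, others 121 to 127), *Ndufa4* (109.9, others 80.3 to 85.4), *Ndufs1* (104, others 84.4 to 86.8), *Sdha* (218, others 183 to 192) and *Uqcrh* (150.3, others 103 to 111). For *Cox6b2*, the isoform known from testis, it was the lowest at 9.01 normalised CPM (others 17.8 to 21.3). In WT, *Uqcrfs1* stood apart in WT 1, the lowest at 43.5 normalised CPM (others 60.8 to 61.2). The genes are not independent of each other, since most nuclear members were high in Dp1Tyb 2 and low in WT 1.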

How the results depend on the processing

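No nuclear and no mitochondrial member was called under any of the 18 alternatives, and the count of members called was 0 in each. At an unadjusted *p* below 0.05 there was 1 nuclear member without WT 1 and 1 mitochondrial member without WT 4. The number of genes called was 24 of 14567 in the main fit. It moved to 67 with DESeq2 and its beta prior, to 1 within the second set of cultures, to 0 with the replicate block, and to between 2 and 26 when a culture was left out. DESeq2 took every gene with a count, and fits on fewer cultures repeated the filter, so these numbers do not share a common set of tested genes. The cause of their differences was not tested. The nuclear median log2 fold change was between -0.051 and -0.000 under other normalisations, filters and covariates, and between -0.075 and 0.044 when a culture was left out. That of the mitochondrial members was between -0.098 and -0.034, and between -0.135 and 0.123. Scaling by library totals moved the median of all genes to -0.041. These shifts were below the SD of culture medians (0.135 nuclear, 0.200 mitochondrial), but their sign changed, as did 117 of 824 values of 46 named members, for 33 of them. Unless a fit is named, the signs printed for members are those of the main fit, and no difference between the genotypes is read from them. With the TMM-scaled library as denominator the nuclear share of counts was 0.672% in WT and 0.673% in Dp1Tyb. Only *Ndufaf7* moved by more than its within-genotype SD, to -0.083 with library totals. Replicate numbers were not taken as pairs. Correlations of deviations between same-numbered cultures were 0.247, 0.732, 0.030 and 0.382. WT 2, Dp1Tyb 1, Dp1Tyb 2 and Dp1Tyb 4 correlated best with their own number, while WT 1, WT 3, WT 4 and Dp1Tyb 3 did not. Such correlations cannot tell whether same-numbered cultures shared a litter or handling. In edgeR the replicate block called 0 genes (802 at an unadjusted *p* below 0.05). Under the replicate block the duplicated genes *Atp5j*, *Gabpa* and *Nrip1* lost their calls (adjusted *p* = 0.104, 0.0858 and 0.0908) at log2 fold changes of 0.557, 0.663 and 0.585.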
